A study of Homo sapiens with 4 samples.

Results

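The E2F proteins, MYBL2 and FOXM1 are transcription factors that control, in order, the genes for DNA replication and then the genes for mitosis. The genes were E2F1 to E2F8, MYBL2 and FOXM1, and every probe set annotated to one of them was taken, 17 of 54675 on the array. All 10 genes were on the array, among 19775 genes with a probe set that carried 1 symbol, and all 10 identifiers matched the current gene table. The samples were cultures of SKOV3, a human cell line established from an ovarian carcinoma, treated with rhSTIP1 (2 arrays) or left without it as the control (2 arrays). The agent rhSTIP1 is taken to be recombinant human STIP1, a cochaperone that cells also secrete. Neither its dose nor the duration of treatment is stated in the labels. The labels do not tie the arrays to separate cultures, and the p-values therefore reflect the spread among these 4 arrays, which may be technical. All values come from this 1 line.

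In the textbook account, E2F1, E2F2 and E2F3 activate transcription at the start of S phase, once cyclin-dependent kinases have released them from the retinoblastoma protein RB1. E2F4 and E2F5 repress the same promoters in resting cells together with the RB1 relatives RBL1 and RBL2. E2F6 represses without any of these pocket proteins, through Polycomb partners, and E2F7 and E2F8 are atypical repressors that bind DNA without a DP partner and shut E2F targets off late in S phase. MYBL2 joins the MuvB complex in S phase, and FOXM1 then joins it to drive the genes of G2 and mitosis. E2F1, E2F2, E2F7, E2F8 and MYBL2 are themselves known targets of E2F.

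The arrays correlated with each other at 0.952 to 0.979 over the 12296 genes tested, which are not independent replicates. rhSTIP1 array 2 stood apart in the ACTB 3′ to 5′ signal ratio, a measure that rises with RNA degradation. That ratio was 8.79 there, against 2.45 to 2.74 on the other arrays, so results are also given without that array. The same ratio for GAPDH differed less, at 1.32 on that array, against 0.99 to 1.16 on the others. The 8 epithelial and ovarian carcinoma markers, among them KRT7, KRT8, KRT18, EPCAM and PAX8, were all above the level at which genes were tested. Their summed signal was 54482 and 57222 on the rhSTIP1 arrays and 51157 and 50684 on the control arrays. The summed signals of the leukocyte, fibroblast and endothelial lists were at most 664 on any array, with PTPRC, the defining leukocyte marker, at 43.7 or below.

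Lower signals with rhSTIP1 were found for 5 genes, namely E2F8, MYBL2, E2F7, E2F2 and FOXM1, by 1.90-fold to 3.96-fold. For these 5 of the 10, both rhSTIP1 signals lay below both control signals, where 14.9% of all genes tested did. Among the 10 genes, only E2F6 had both rhSTIP1 signals above both control signals, by 1.48-fold, where 14.0% of all genes tested did. The arrays of the groups overlapped for the other 4, which were E2F1, E2F3, E2F4 and E2F5. The lower genes thus included both atypical repressors, both G2 factors and 1 of the 3 activators. In RNA from whole cultures, fewer cells that express a gene and less of its RNA per cell cannot be told apart.

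Each gene is described by its brightest probe set unless another is named. Signals are linear MAS5 intensities, and a fold change is the difference of log2(signal + 16), rhSTIP1 minus control, with its standard error from limma's model. Over all genes, 0 of 12296 passed limma's test at an adjusted p of 0.05 (0.0%), and none of the 10 factors did. At an unadjusted p under 0.05, 5 of the 10 factors were lower, against 2.64% of all genes tested, and 0 were higher, against 1.04%. The same 5 lay apart from the controls by at least 1.5-fold with no overlap, a measure that 3.79% of all genes met on the lower side and 1.9% on the higher side. Of all genes that met it, 66.6% were lower, a share that was 51.8% once arrays were centred on their medians. With all 4 arrays, the lower share of the genes at an unadjusted p under 0.05 was 71.7%, and 56.3% with that centring. Without rhSTIP1 array 2, the array with the high ACTB ratio, the 5 lower factors had log2 fold changes of −2.24 to −0.78. With a single rhSTIP1 array left, a lack of overlap is easier to meet for any gene. The median log2 fold change was −0.58 over the 10 factors and 0.02 over all genes tested.

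**Figure D1:**
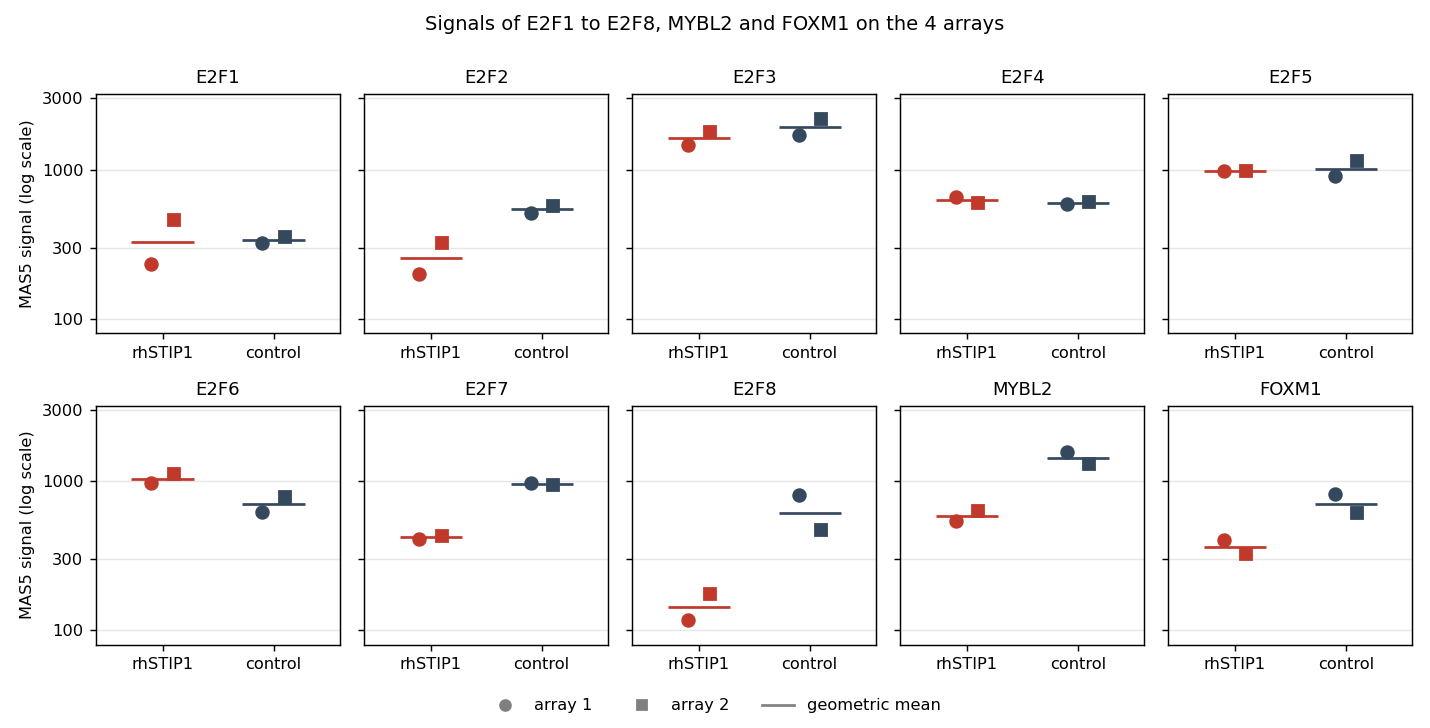
MAS5 signal (log axis) of the brightest probe set of each gene, with rhSTIP1 arrays in red to the left of control arrays in dark grey, circles for array 1, squares for array 2 and bars for the geometric mean of each group. E2F2, E2F7, E2F8, MYBL2 and FOXM1 lie lower in both rhSTIP1 arrays, E2F6 lies higher, and the arrays of the remaining genes overlap.

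Among the activators, E2F2 was the one that separated the groups. Its signal was 200.4 and 322 on the rhSTIP1 arrays, against 512 and 573 on the control arrays. The groups did not overlap, and rhSTIP1 array 1 was the lowest. E2F2 differed by a log2 fold change of −1.04 ± 0.30 (n = 2 against 2, limma, unadjusted p = 0.00914, adjusted p = 0.833). Leaving out rhSTIP1 array 1 gave −0.72, and leaving out rhSTIP1 array 2 gave −1.37.

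E2F1, the founding member of the family, had signals of 234 and 458 with rhSTIP1, against 322 and 354 in the controls. The rhSTIP1 arrays lay on either side of both controls, so their mean came out near that of the controls. The log2 fold change was −0.04 ± 0.35, with a 95% interval from −0.85 to 0.77. Dropping rhSTIP1 array 2 gave −0.50 and dropping rhSTIP1 array 1 gave 0.42, so its sign rested on which array was kept. The second E2F1 probe set also overlapped, with 177 and 277 with rhSTIP1 and 213 and 303 in the controls.

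E2F3 had signals of 1471 and 1801 with rhSTIP1, against 1698 and 2197 in the controls. The higher rhSTIP1 array lay above the lower control, and the log2 fold change was −0.24 ± 0.25 (95% interval −0.83 to 0.34). Its other probe set gave −0.22 ± 0.46. For the brightest probe sets of E2F3 and E2F1, the 95% intervals did not reach a halving, −1 on this scale. That does not extend to the second probe sets, whose standard errors were 0.46 for E2F3 and 0.36 for E2F1.

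On their brightest probe sets, the canonical repressors were close to their control levels. E2F4 had 652 and 597 with rhSTIP1 and 584 and 604 in the controls, a log2 fold change of 0.07 ± 0.24 (95% interval −0.48 to 0.62). E2F5 had 981 and 978 with rhSTIP1 and 901 and 1137 in the controls, a log2 fold change of −0.05 ± 0.24 (95% interval −0.61 to 0.52). For both genes the arrays of the groups overlapped. A second, dimmer E2F4 probe set, at 111 and 194 with rhSTIP1 and 171 and 286 in the controls, gave −0.54 ± 0.42 and also overlapped. The intervals of the brightest probe sets leave room for changes of up to about 1.5-fold in either direction. They do not bound the dimmer E2F4 probe set. Averaging the probe sets of each gene gave −0.24 for E2F4 and −0.21 for E2F5.

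E2F6, the Polycomb-linked repressor, went the other way from its atypical relatives. It had signals of 965 and 1114 with rhSTIP1, against 621 and 779 in the controls. Both rhSTIP1 arrays were above both controls, a pattern that 14.0% of all genes tested showed in this direction. The log2 fold change was 0.56 ± 0.25 (95% interval −0.02 to 1.15, limma, unadjusted p = 0.055, adjusted p = 0.999). E2F6 had 1 probe set, so no other measurement of it was at hand.

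E2F7 and E2F8 restrain the E2F program after replication has begun. E2F7 had signals of 406 and 429.6 with rhSTIP1, against 973 and 933 in the controls. The 2 arrays of each group lay close together, and the gap between groups was far wider than the spread within them. E2F7 had a log2 fold change of −1.16 ± 0.23, or 2.23-fold lower (limma, unadjusted p = 0.00131, adjusted p = 0.702), and ran only from −1.20 to −1.12 when single arrays were left out. A second E2F7 probe set, near the level at which genes were tested, had 73.6 and 67.9 with rhSTIP1 and 87.2 and 60.2 in the controls. It did not separate the groups (−0.03 ± 0.44), so the brighter probe set alone carried the difference.

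E2F8 had the lowest fold change of the 10 genes and ranked 12 of 12296 by unadjusted p. Its signal was 117 and 173 with rhSTIP1, against 801 and 469 in the controls. Both rhSTIP1 arrays lay well below the lower control, although the controls themselves differed by −0.75 on the log2 scale, control 2 minus control 1. The log2 fold change was −1.99 ± 0.35, or 3.96-fold lower (limma, unadjusted p = 5.4e-04, adjusted p = 0.528). It was −1.61 without control array 1 and −2.36 without control array 2.

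MYBL2, the B-Myb protein of the MuvB complex, had signals of 541 and 632 with rhSTIP1, against 1549.6 and 1289 in the controls. Both rhSTIP1 arrays were lower than both controls, and the spread within each group was small. The log2 fold change was −1.25 ± 0.24, or 2.38-fold lower (limma, unadjusted p = 0.0011, adjusted p = 0.702). With 1 array left out it ran from −1.38 to −1.12. FOXM1, the forkhead factor that follows MYBL2 onto the same complex, had 401 and 326 with rhSTIP1, against 811 and 604 in the controls. Here too the groups did not overlap. FOXM1 had a log2 fold change of −0.92 ± 0.27 (limma, unadjusted p = 0.0099, adjusted p = 0.847), and array 2 was the lower one in both groups. Dropping control array 1 gave −0.72 (limma, unadjusted p = 0.0702), and dropping rhSTIP1 array 2 gave −0.78 (limma, unadjusted p = 0.0528). MYBL2, FOXM1 and E2F8 each had 1 probe set. The FOXM1 probe set is of the type marked x, which can share probes with other transcripts.

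**Figure D2:**
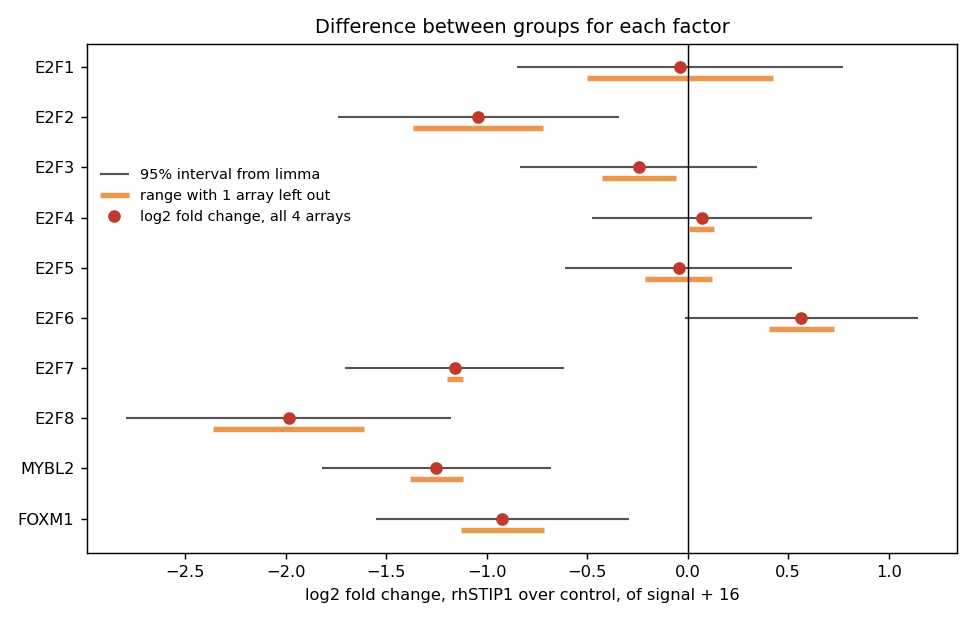
Log2 fold change of each factor (red points), rhSTIP1 over control, with the 95% interval from limma (grey lines) and the range obtained with 1 array left out (orange bars). The intervals of E2F2, E2F7, E2F8, MYBL2 and FOXM1 lie below 0, and the orange bars of E2F1 and E2F5 cross 0.

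Over all 17 probe sets, 14 had a mean signal at or above 69.4, the median of all probe sets, and 3 were below it. Both rhSTIP1 arrays lay below both controls for 6 probe sets, against 16.4% of all 54613 probe sets that are not array controls, and above them for 1, against 13.4%. The sixth lower one was a dim E2F2 probe set with 13.5 and 29.6 on the rhSTIP1 arrays and 48.0 and 80.7 on the control arrays. The remaining E2F2 probe set, dimmer still, overlapped. The deposited table has no detection calls, so probe sets this dim could not be told from background.

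**Figure D3:**
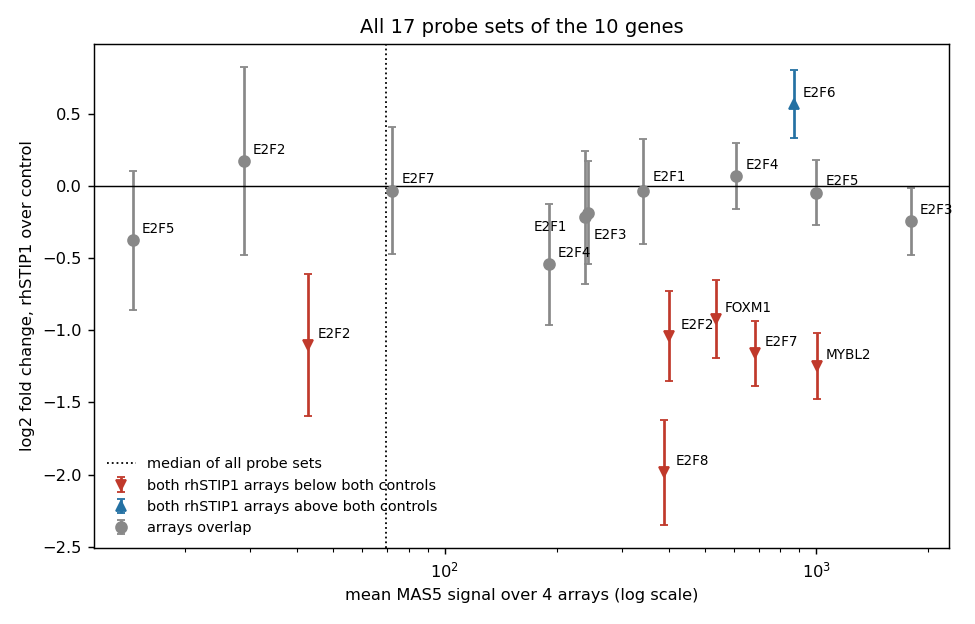
Log2 fold change, rhSTIP1 over control, with its standard error from limma, against mean MAS5 signal (log axis) for the 17 probe sets of the 10 genes. Triangles mark probe sets whose groups do not overlap, circles those that do, and the dotted line is the median signal of all probe sets. E2F2, E2F4 and E2F7 have probe sets that differ in their fold change.

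Set against each other as 2 classes, the activating and the repressing E2Fs had similar means, and the repressors differed widely among themselves. The mean log2 fold change was −0.44 over E2F1 to E2F3 and −0.51 over E2F4 to E2F8, a difference of 0.07. That difference was −0.17 in rhSTIP1 array 1 and 0.31 in rhSTIP1 array 2, each relative to the control mean, against −0.12 and 0.12 in the controls. With 2 arrays against 2, an exact permutation test cannot give a p below 0.333, so none was run. Within the repressors, E2F7 and E2F8 averaged −1.72 and −1.43 on the rhSTIP1 arrays relative to the control mean, against 0.20 and −0.20 on the control arrays. E2F4, E2F5 and E2F6 averaged 0.18 and 0.21 on the rhSTIP1 arrays, against −0.12 and 0.12 on the control arrays. MYBL2 and FOXM1 averaged −1.07 and −1.10 on the rhSTIP1 arrays, against 0.17 and −0.17 on the control arrays. These close rhSTIP1 averages hid opposite orders. On the log2 scale, rhSTIP1 array 2 minus rhSTIP1 array 1 was 0.22 for MYBL2 and −0.29 for FOXM1. The activators averaged −0.75 on rhSTIP1 array 1 but only −0.13 on rhSTIP1 array 2, where the controls were at −0.11 and 0.11. This split of the repressors into groups was described after the values were known.

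**Figure D4:**
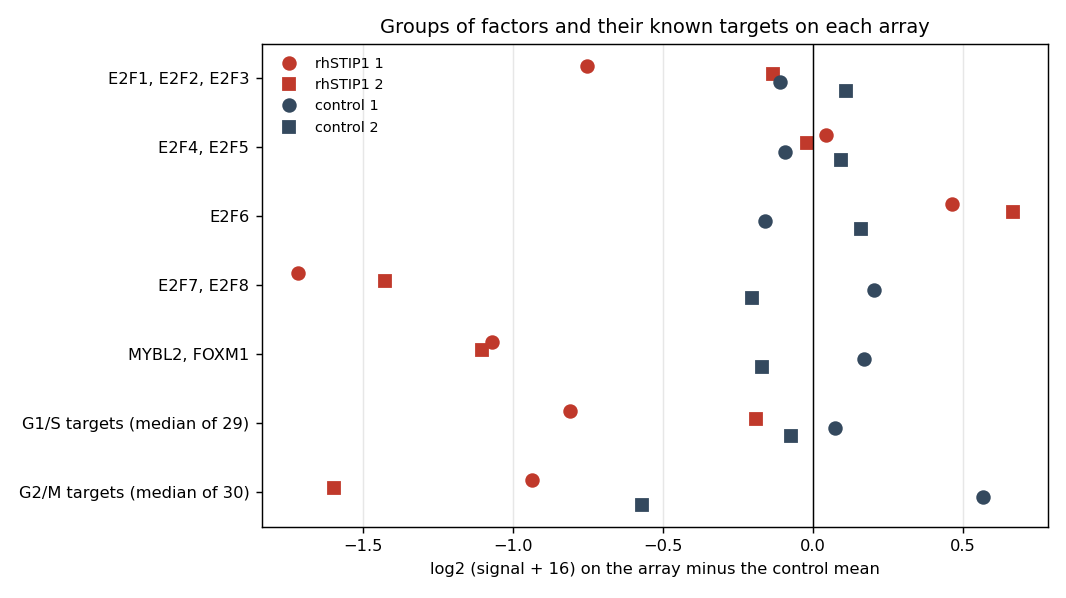
Log2(signal + 16) on each array minus the control mean, averaged over the genes named at the left or given as the median of a target list. Red marks are rhSTIP1 arrays and dark marks control arrays. E2F7 with E2F8 and MYBL2 with FOXM1 are apart from the controls on both rhSTIP1 arrays, whereas the activators and the G1/S targets are so mainly on rhSTIP1 array 1.

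The likeness of profiles was measured as the distance between log2 values centred over the 4 arrays. Among the 10 genes, E2F7 and MYBL2 were the most alike, at a distance of 0.20. For the nearest genes, names that are only codes, such as locus or open reading frame numbers, and antisense names were left out. The 3 other tested genes nearest to E2F7 were FUT1 (0.04), RAD54B (0.16) and THAP10 (0.18). RASSF1 (0.10), RAD54B (0.10) and GRPEL2 (0.15) lay nearest to MYBL2, so RAD54B was shared. Those of E2F8 lay farthest off and were HJURP, the centromere histone chaperone (0.29), NUDT1 (0.49) and NEIL3 (0.51). FOXM1 was nearest to CENPU, a kinetochore gene (0.04), FIRRM (0.08) and TRAIP (0.09). For E2F2 the nearest were ZNF684 (0.10), DDX19B (0.13) and ZNF649 (0.16), and for E2F6 they were FBLIM1 (0.05), FAM86B2-DT (0.06) and PTPRU (0.07). Those of the genes that overlapped lay at 0.02 to 0.09. They were SOX6, FBXO3 and FAM20C for E2F1, PPP1R13B, AMMECR1L and DIDO1 for E2F3, TTC17, OR1I1 and ANP32A for E2F4, and AATF, MRPS35 and TMEM267 for E2F5. The profiles rest on 4 arrays, so these distances are a description only.

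The upstream 250 bases of 7 of the genes were read from RefSeq promoter windows on GRCh38.p14. No window was at hand for E2F5, E2F8 or FOXM1, so these genes could not be searched. The windows of the 7 genes were searched on both strands for E2F heptamers, written TTNNCGN with each N either C or G. Overlapping matches were counted once. A heptamer was present in 20.2% of all 35116 windows of this length and in 29.2% of the 14583 windows of tested genes. Of the 7 genes, 6 had at least 1 in a window, the exception being E2F4. The stretches below are shown because the activators share a pair of heptamers. Among them, only E2F2 was apart from the controls. Capitals mark the heptamers, and each run ends at the base before the annotated gene start.
E2F1, chr20:33686386-33686485, minus strand: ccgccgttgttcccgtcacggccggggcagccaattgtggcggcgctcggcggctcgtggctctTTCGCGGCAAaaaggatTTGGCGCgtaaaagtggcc
E2F2, chr1:23531234-23531333, minus strand: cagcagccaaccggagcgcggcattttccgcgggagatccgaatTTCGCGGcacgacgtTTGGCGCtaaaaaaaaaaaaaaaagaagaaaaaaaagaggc
E2F3, chr6:20401779-20401878, plus strand: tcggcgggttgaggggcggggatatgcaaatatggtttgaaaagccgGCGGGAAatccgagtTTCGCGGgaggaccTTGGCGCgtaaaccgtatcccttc
MYBL2, chr20:43667014-43667113, plus strand: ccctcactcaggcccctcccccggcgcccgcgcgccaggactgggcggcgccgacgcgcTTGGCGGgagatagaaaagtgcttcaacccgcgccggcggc

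All 3 activators carried TTCGCGG followed by TTGGCGC on the sense strand. These began 36 and 19 bases before the start in E2F1, 56 and 41 in E2F2, and 38 and 24 in E2F3. A further E2F3 window, at another start, had none. E2F1, E2F2 and E2F3 thus each had that pair in 1 window, with a further separate heptamer in that of E2F3. In E2F1, an antisense heptamer 33 bases before the start overlapped the first of the pair. The capitals there run on over both, which were counted once. Whether the pair bears on their signals was not tested. MYBL2 had a single heptamer 41 bases before its start. At least 2 heptamers were found in 6.02% of the windows of tested genes. A match describes the letters only and is not evidence of binding.

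The repressors with windows are set beside each other because E2F7 was lower with rhSTIP1 and E2F6 higher. Both had 2 heptamers in 250 bases, in E2F7 on the antisense strand and 133 and 176 bases before the start, and in E2F6 on the sense strand and 77 and 182 bases before it. The E2F7 window held 4 CCAAT boxes, but those of E2F2 and MYBL2, also lower, held 0, as did that of E2F6. The windows of E2F1 and E2F3, whose arrays overlapped, held 3 and 4 (the further E2F3 window 0). A CCAAT box was present in 33.0% of the windows of tested genes.
E2F7, chr12:77065570-77065819, minus strand: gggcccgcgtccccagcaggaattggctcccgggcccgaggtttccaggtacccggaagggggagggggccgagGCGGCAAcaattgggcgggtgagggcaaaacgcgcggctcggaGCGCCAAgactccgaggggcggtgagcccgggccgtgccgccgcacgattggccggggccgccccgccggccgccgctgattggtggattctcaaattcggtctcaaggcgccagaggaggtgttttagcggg
E2F6, chr2:11466162-11466411, minus strand: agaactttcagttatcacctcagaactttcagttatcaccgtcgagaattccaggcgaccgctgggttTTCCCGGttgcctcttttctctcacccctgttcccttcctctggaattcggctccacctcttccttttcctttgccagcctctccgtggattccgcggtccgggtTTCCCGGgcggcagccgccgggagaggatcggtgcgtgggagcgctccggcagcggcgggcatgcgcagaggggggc

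Partners of these factors were compared with lists of known members. Of the DP partners and pocket proteins, 5 of 6 were tested and 0 had an unadjusted p under 0.05. RBL1, itself an E2F target, had 218 and 401 with rhSTIP1, against 484 and 459.7 in the controls (−0.64 ± 0.33, no overlap). It was 1 of the 5 with both rhSTIP1 signals below both controls, against 14.9% of all genes tested. In the other direction it was also 1 of the 5, the DP partner TFDP2 (0.09 ± 0.22), against 14.0%. TFDP1 (−0.19 ± 0.25), RB1 (−0.02 ± 0.22) and RBL2 (−0.02 ± 0.25) overlapped. Of the 5 MuvB core genes, 4 had both rhSTIP1 signals below both control signals, where 14.9% of all genes tested did. They were LIN9 (−0.73 ± 0.40), LIN37 (−0.51 ± 0.30), LIN54 (−0.45 ± 0.34) and LIN52 (−0.18 ± 0.25), and 0 of the 5 had an unadjusted p under 0.05. The Polycomb partners of E2F6 had a median of 0.04 over 8 tested genes, with 0 at an unadjusted p under 0.05 in either direction.

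The cyclins, kinases and inhibitors that act on RB1 had a median of 0.06 over 13 tested genes. Of these, 2 were lower at an unadjusted p under 0.05, against 2.64% of all genes tested, and 0 higher, against 1.04%. CCNA2, the S and G2 cyclin, had 943 and 971 with rhSTIP1, against 3045 and 1960 in the controls (−1.34 ± 0.28). CDKN1B, the kinase inhibitor p27, was also lower, at 2797 and 1498 against 4593 and 3071 in the controls (−0.87 ± 0.35). CDKN1A, the inhibitor p21, was higher in both rhSTIP1 arrays at 0.48 ± 0.26. CCND1, the G1 cyclin, had 2048 and 5210 with rhSTIP1 and 2179 and 2326 in the controls, so its value of 0.53 ± 0.41 came from rhSTIP1 array 2 alone. SKP2 (0.26 ± 0.24) was higher in both rhSTIP1 arrays and CDKN2D (−0.73 ± 0.51) overlapped. Both rhSTIP1 signals lay above both controls for 3 of the 13 (CDKN1A, SKP2 and CDK4), against 14.0% of all genes tested. They lay below both for 2, against 14.9%.

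Among known E2F targets of the G1/S transition, 28 of 29 tested genes had a log2 fold change below 0, against 46.8% of all genes tested, and the median was −0.58. At an unadjusted p under 0.05, 7 were lower, against 2.64% of all genes tested, and 0 higher, against 1.04%. By unadjusted p, RRM2, RFC4, TYMS, EZH2, CDT1 and BRCA1 came first, with log2 fold changes of −1.78 to −0.66. That order is not one of fold change, since TK1 (−0.98), the remaining called gene, and the uncalled UHRF1 (−1.05) and DTL (−0.99) had lower values than all of these but RRM2. The list's median relative to the control mean was −0.81 on rhSTIP1 array 1 and −0.19 on rhSTIP1 array 2, against 0.07 and −0.07 on the control arrays. Without rhSTIP1 array 1 the median fold change was −0.19. The MCM helicase genes other than MCM7 lay between −0.19 and −0.01 with overlapping arrays. MCM7 (−0.58 ± 0.31) did not overlap, and MCM10 (−0.78 ± 0.47), counted apart from them, did. E2F1, E2F2 and E2F3 also had the lower of their rhSTIP1 signals on rhSTIP1 array 1. So did E2F6, E2F7, E2F8 and MYBL2, so that order was not particular to the activators.

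Targets of MYBL2 and FOXM1 in G2 and mitosis had a median of −1.26 over 30 tested genes, all of them below 0, where 46.8% of all genes tested were. At an unadjusted p under 0.05, 20 were lower, against 2.64% of all genes tested, and 0 higher, against 1.04%. By at least 1.5-fold with no overlap, 21 were lower, against 3.79% of all genes. CDK1, KIF2C, CENPE, KIF23, CDC25C and AURKB had the smallest unadjusted p, with log2 fold changes of −2.08 to −1.35. By fold change AURKB was the lowest and AURKA (−1.58) came next. Here the order of the arrays was turned round, with medians of −0.94 on rhSTIP1 array 1 and −1.59 on rhSTIP1 array 2, against 0.57 and −0.57 on the control arrays. Control array 2 was thus below control array 1 for these targets, as it was for FOXM1, E2F8, MYBL2 and, by less, E2F7. Without control array 1 the list's median was −0.63. These lists were written with earlier results of the same arrays known and are not independent evidence of a direction. The part that the difference between the control arrays plays in these results was not tested.

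**Figure D5:**
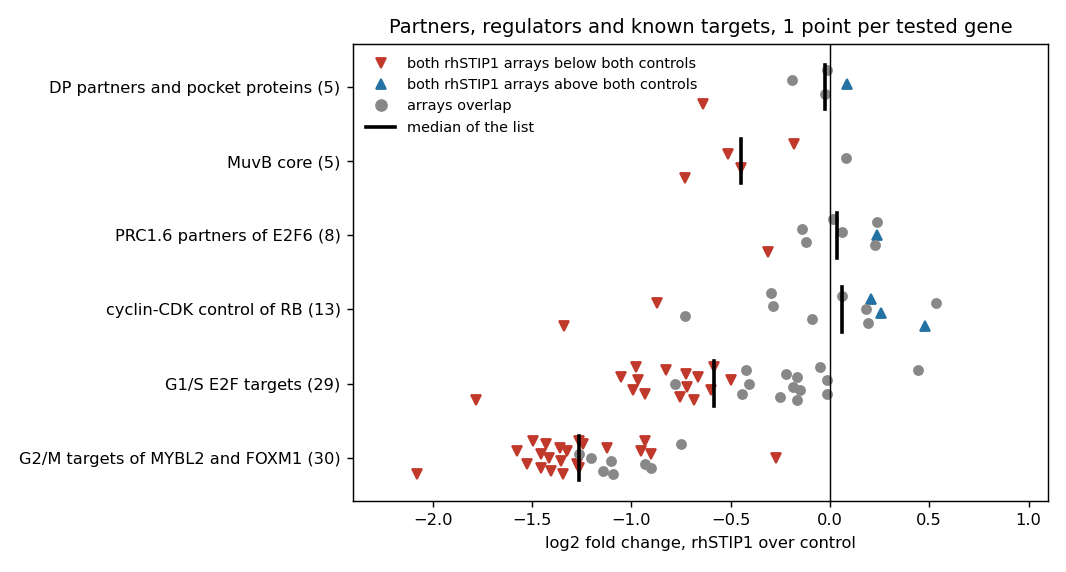
Log2 fold change, rhSTIP1 over control, of each tested gene in lists of partners, regulators and targets, with the number tested in brackets and the list's median as a black bar. Red triangles point down where both rhSTIP1 arrays lie below both controls, and blue triangles point up where both lie above. The medians of the G1/S and G2/M target lists are −0.58 and −1.26, and those of the partner and regulator lists other than MuvB lie between −0.02 and 0.06, although single genes in them, such as CCNA2 at −1.34, lie well away from 0.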

How the data were processed

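Per the submitters' processing notes, the authors summarised the arrays with MAS5 in Affymetrix Expression Console 1.1. The deposited values are linear intensities, 1 per probe set and array, with a trimmed mean of about 500.1 on each of the 4 arrays. Control probe sets (62 of 54675) were left out. For each gene the brightest probe set was kept, out of the 41091 with exactly 1 symbol. Genes were tested if its mean signal was at least 69.4, the median of all probe sets that are not controls. This left 12296 of 19775 genes.

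The values log2(signal + 16) were fitted with limma 3.58.1 (lmFit, then eBayes with an intensity trend) under R 4.3.3. Tests were two-sided and p-values were adjusted by Benjamini-Hochberg. All 54613 probe sets were also fitted without a filter. The residual degrees of freedom were 2 per gene, plus 5.56 from the shared spread. The number of arrays limits the precision. The steps were run on simulated data with planted changes larger than most reported here. Power at the sizes reported here was therefore not measured. The factors, lists and alternatives were chosen with earlier results of these data known. Named genes were the 10 factors, up to 6 tested genes of each list with the smallest unadjusted p, and the 3 nearest profiles of each factor. Code names and antisense names were left out of the nearest profiles. LIN52, CDK4, TK1, UHRF1, DTL, AURKA, the MCM genes and the other genes named with them in a count were named after their values were seen. Samples sharing a replicate number deviated together (correlation 0.36), but the labels tie nothing to that number, so it was not used as a block. Alternatives covered the pseudocount, filter, scaling, probe sets, eBayes, the block and leaving out each array.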

Additional observations from a re-analysis of the deposited data

How the results depend on the processing

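The 5 lower factors were the same 5, apart by at least 1.5-fold, in every alternative run except averaging the probe sets of a gene, where E2F2 was lost (4 genes). That averaging, which brings in dim probe sets, gave −0.66 for E2F2 and −0.60 for E2F7. E2F2 also had an unadjusted p above 0.05 without rhSTIP1 array 1, and FOXM1 without control array 1 or rhSTIP1 array 2. E2F6 passed an unadjusted p of 0.05 in 5 of 14 alternatives. With the replicate block, 247 genes passed an adjusted p of 0.05, among them 5 of the 10 factors (E2F8, MYBL2, E2F7, E2F2 and FOXM1), with 691 genes lower and 441 higher at an unadjusted p under 0.05. With the block, 1 residual degree of freedom remains and the numbers are not known to pair the arrays. The count passing an adjusted p was otherwise 1 with a filter at the 70th percentile, 2 with robust eBayes and 0 to 6 with 1 array left out, where 0 of the factors passed. Without a filter, the unadjusted counts were 503 lower and 304 higher, and 1232 lower and 855 higher genes were apart by at least 1.5-fold. With the filter at the 70th percentile, 301 lower and 123 higher genes were apart by that fold, and 150 were higher with a pseudocount of 64. With 1 array left out, 158 to 491 genes were lower and 113 to 368 higher at an unadjusted p, and 654 to 1034 lower and 408 to 945 higher by at least 1.5-fold. The median of the 10 factors was −0.42 with the mean of probe sets and ran from −0.64 to −0.41 with 1 array left out. The MuvB median was −0.34 with a pseudocount of 64, −0.18 at the 70th percentile filter, −0.33 with the mean of probe sets, and −0.63 to −0.23 with 1 array left out. The median of the Polycomb partners was 0.092 with median centring, −0.087 with the mean of probe sets, and −0.0092 to 0.053 with 1 array left out. With 1 array left out, the medians ran from −0.23 to 0.073 for DP partners and pocket proteins, −0.14 to 0.16 for cyclin-CDK control and −0.81 to −0.19 for G1/S targets. The causes of these shifts were not tested. With 1 array left out, the spread comes from the other group alone.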
